A study of Mus musculus with 3 samples.

Results

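The 10 genes described here encode integrin subunits that leukocytes use to stop on vessel walls, cross them and stay in tissue. They were chosen by symbol, as the 10 rows among the 31053 features of the deposited tables that are named Itgal, Itgam, Itgax, Itgb2, Itga4, Itgae, Itgb7, Itgb1, Itgav and Itgb5. Of these, 6 encode alpha and 4 encode beta subunits, and all 10 were measured. The cells came from mouse glioblastoma: NPcis brain tumor-initiating cells, mutant in Nf1 and Trp53 and carrying luciferase and GFP (the BTIC0309 line), were implanted into the brains of female C57BL/6 mice aged 6 to 8 weeks. The control library, labelled vehicle control replicate 2, came from saline-treated mice. The niacin libraries, labelled replicates 1 and 2, came from mice given niacin (vitamin B3) at 100 mg/kg into the peritoneum each day from day 7. All mice of the 3 libraries bore the same tumor cells, and tissue was taken 4 weeks after implantation as a 2 mm section around the tumor, freed of myelin on Percoll and sorted for live cells with SYTOX Red. Each library pooled several brains, so 3 libraries are 3 pools and not single animals. No library in this set came from a tumor-free brain, and 1 tumor line was used throughout.

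An integrin is a pair of 1 alpha and 1 beta subunit on the cell surface. It is held in a bent, inactive form until signals from inside the cell, which run through Rap1, talin and kindlin, open it to bind its ligand. The beta2 integrins pair Itgb2 (CD18) with Itgal (LFA-1, which binds ICAMs), Itgam (CD11b, also a complement receptor) or Itgax (CD11c). Itga4 pairs with Itgb1 to form VLA-4, which binds VCAM-1 on vessels, or with Itgb7 to form a receptor for the gut vessel ligand MAdCAM-1. Itgae (CD103) pairs only with Itgb7 and binds E-cadherin on epithelial cells. Itgav pairs with Itgb5, Itgb1 and others to bind vitronectin and the latent form of TGF-beta. Microglia enter the brain before birth and renew themselves there, whereas monocytes, neutrophils, T cells and B cells arrive from the blood.

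The libraries held 2270, 2145 and 2532 cell barcodes in the order vehicle control, niacin replicate 1 and niacin replicate 2, which is the order of every run of 3 values below. Their totals were 8301228, 9373321 and 10359526 unique molecular identifiers (UMIs, 1 per captured RNA molecule). After a filter (at least 200 genes, at most 20% mitochondrial UMIs) and after 1 copy of each barcode found in several libraries was kept, 1324, 1421 and 1600 cells remained, with medians of 2982.5, 5063 and 5210.5 UMIs. The libraries shared 924 barcodes, and for 848 of them the deepest copy held at least 5 times the UMIs of the next. Only the deepest copy was kept here.

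Cells were put in classes by 17 lists of 8 lineage markers, none of which held an integrin. A class needed at least 3 detected markers and 2 more than any other list. The microglia-like class (P2ry12, Tmem119, Gpr34) held 424, 814 and 931 cells. Of the recruited classes that reached 10 cells in each of the 3 libraries, the nonclassical monocyte-like class (Ear2, Treml4, Ace) held 21, 53 and 42 cells. The neutrophil-like class (S100a8, S100a9, Retnlg) held 63, 47 and 42, the T cell-like class (Cd3e, Trac) held 160, 110 and 134, and the B cell-like class (Cd79a, Ms4a1) held 20, 30 and 44. Of the 10 leading genes of each of these 5 classes, 5 to 7 were markers of its own list, a check that the class rule itself favours, and none of the 10 integrins was among the 10 leading genes of a class. Classical monocyte-like cells numbered 199, 5 and 18 and natural killer cell-like cells 63, 5 and 10. Both therefore gave values but no test. Orders of levels below are among the 5 tested classes and choroid plexus-like cells. Levels are counts per 1e6 UMIs (CPM) of a class in a library. Since capture can differ between 3′ ends, levels of different genes are not compared.

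Red cell precursors and choroid plexus epithelium are not known for beta2 or beta7 integrins, and their levels served as a reference for free RNA. Whether they measure free RNA was not tested, and red cell precursors are known to carry VLA-4. In erythroid-like cells the 10 genes lay between 0 and 16.3 CPM. In choroid plexus-like cells Itgal, Itgam, Itgax, Itgb2, Itga4, Itgae and Itgb7 lay between 0 and 23.7 CPM, and Itgb1, Itgav and Itgb5 were higher. A level within its gene's own range in these classes is called background below, as a convention. In microglia-like cells this holds in both niacin libraries for Itgal (1.47 and 5.52 CPM, against up to 23.7), Itga4 (8.55 and 7.73 CPM, against up to 12.1) and Itgb7 (2.69 and 1.55 CPM, against up to 4.93). For the first 2 genes these limits rest on few cells. The Itgal limit came from 24 UMIs in 1.83% of 109 choroid plexus-like cells of niacin replicate 1, against 2.47 CPM in niacin replicate 2, and the Itga4 limit from 8 UMIs in 2.56% of 39 erythroid-like cells. The vehicle control values of the 3 genes lay above the limits, at 41.6, 18.9 and 5.58 CPM.

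**Figure D1:**
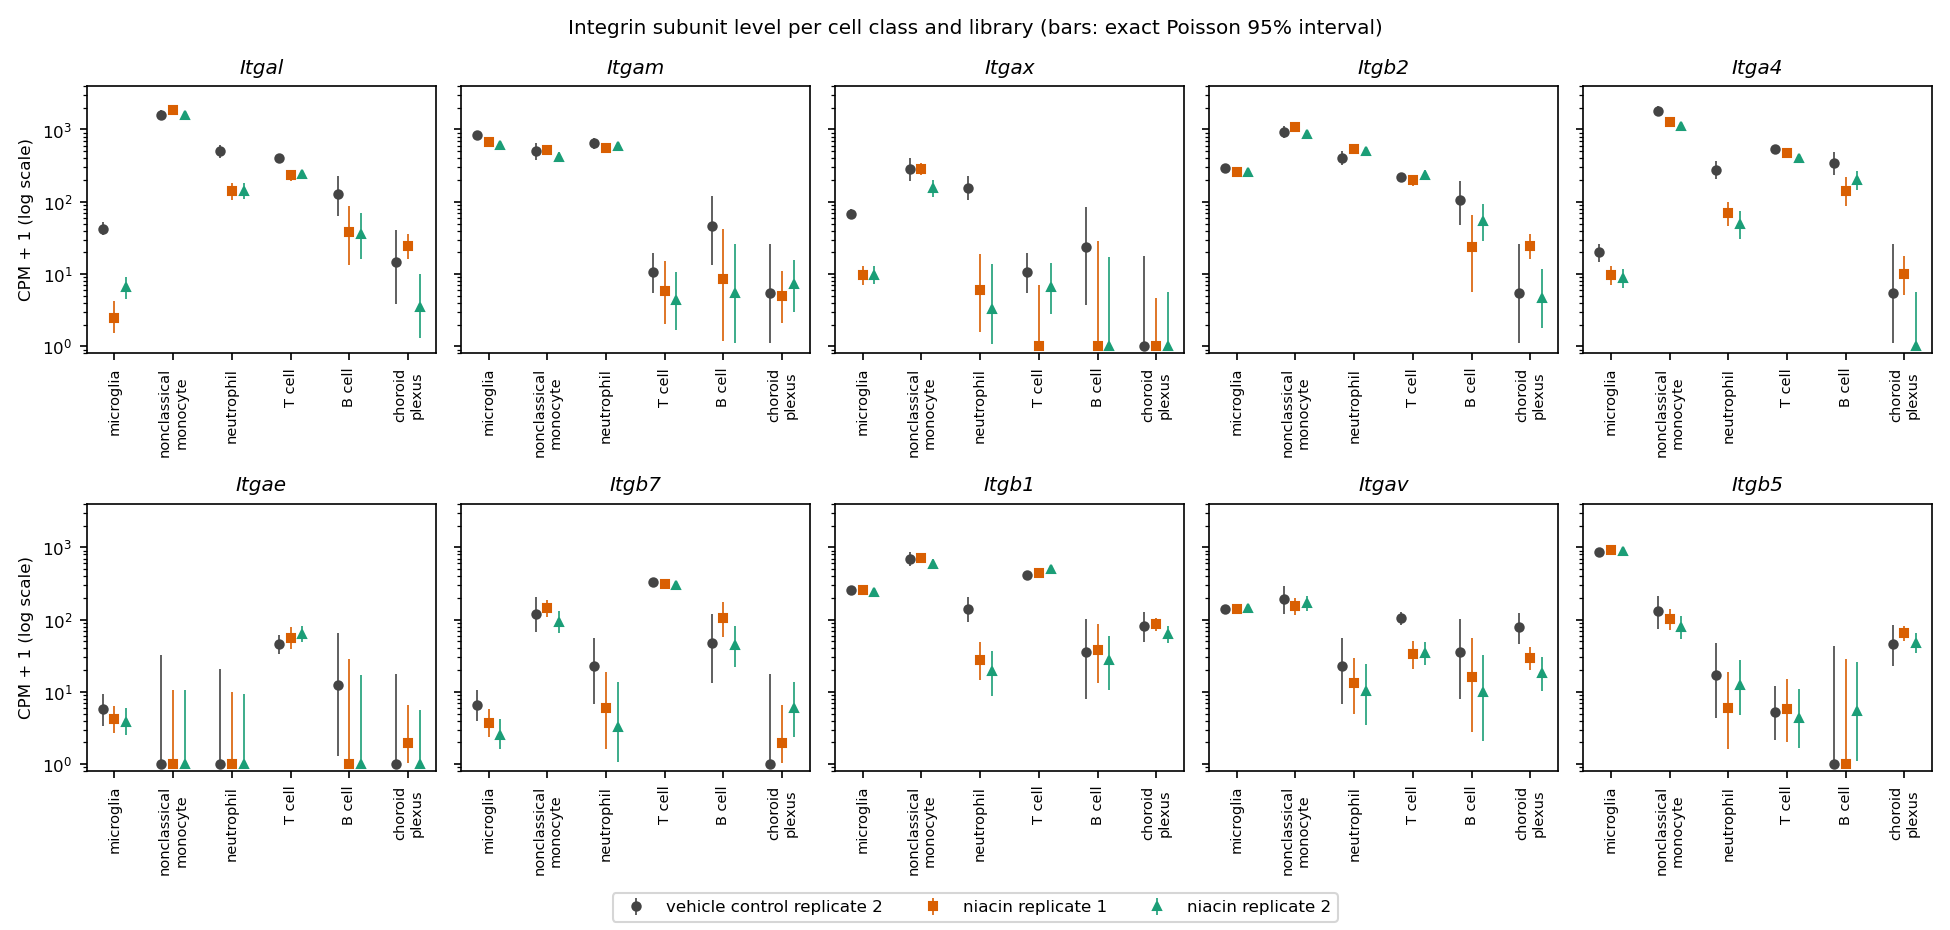
Levels of the 10 integrin subunits in microglia-like cells, the 4 recruited classes and choroid plexus-like cells. The y axis is CPM + 1 on a log scale, each point is 1 library, and bars are exact Poisson 95% intervals of the UMI counts. Itgb5 stood highest in microglia-like cells in all 3 libraries, whereas Itgal and Itga4 stood highest in nonclassical monocyte-like cells.

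Itgb5, the beta subunit of the vitronectin receptor alphaVbeta5, was highest in microglia-like cells, at 851, 918 and 905 CPM (891 ± 35.1, SD, n = 3 libraries). Nonclassical monocyte-like cells held 129, 101 and 77.5 CPM, choroid plexus-like cells 45.2, 64.2 and 46.9 CPM, and neutrophil-like cells 16.1, 4.92 and 11.5 CPM. T cell-like cells held 4.29, 4.87 and 3.36 CPM, and in B cell-like cells 1 UMI was found in 3 libraries. No library of these classes reached the lowest library of microglia-like cells. The share of microglia-like cells with an Itgb5 UMI, after each cell was thinned to 2000 UMIs, was 80.8%, 79.8% and 80.1%, against 19.4%, 12.8% and 8.18% of choroid plexus-like and 0.775%, 0 and 0.862% of T cell-like cells. The exact binomial 95% intervals were 75.7% to 85.2%, 76.5% to 82.8% and 76.8% to 83.1% in microglia-like cells and 7.45% to 37.5%, 7.20% to 20.6% and 3.81% to 15.0% in choroid plexus-like cells. Without thinning, it was 82.1%, 92.6% and 86.8% of microglia-like cells, whose median depths were 4385, 5058 and 4975 UMIs against 5242.5, 7797 and 5769 of choroid plexus-like cells. Thinning left out 143, 156 and 283 shallower microglia-like cells, and the 0 of 80 T cell-like cells allows a share of up to 3.75%, at a floor of 3 cells. The upper limit of the exact binomial interval for that 0 was 4.51%.

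Itgam was abundant in all 3 myeloid classes. It reached 832, 667 and 600.5 CPM in microglia-like cells, 645, 546 and 582 CPM in neutrophil-like cells and 499.8, 511 and 421 CPM in nonclassical monocyte-like cells. The ranges of microglia-like and neutrophil-like cells overlapped, and nonclassical monocyte-like cells lay below both. T cell-like cells (9.66, 4.87 and 3.36 CPM) and B cell-like cells (45.8, 7.47 and 4.42 CPM) were far lower. The gene overlaps Gm49368 on the same strand, which held 304 UMIs in all barcodes against 10401 of Itgam. How reads of the shared stretch were counted was not examined.

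The sequences before the start of Itgb5 and Itgam are shown because these genes had the clearest microglial and myeloid patterns. Each is the 250 bases upstream of the RefSeq start on the gene's strand (GRCm38.p6), at chr16:33829415-33829664, plus strand, for Itgb5 and chr7:128062390-128062639, plus strand, for Itgam. Of the 10 members, 7 had an entry in the RefSeq table. Capitals mark matches, on either strand, to 3 short motifs: GAGGAA, a purine box of the PU.1 type, TGTGGT, a RUNX type, and GGGCGG, a GC box of the Sp1 type. Among 32536 RefSeq windows of this length, 23.4%, 14.0% and 33.0% held them. Such a match describes letters and shows no binding.
Itgb5: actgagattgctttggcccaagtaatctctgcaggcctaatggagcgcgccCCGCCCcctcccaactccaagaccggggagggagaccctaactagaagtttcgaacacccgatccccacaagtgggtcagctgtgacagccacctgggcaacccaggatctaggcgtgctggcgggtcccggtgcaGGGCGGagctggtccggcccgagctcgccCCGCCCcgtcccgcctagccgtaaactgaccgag
Itgam: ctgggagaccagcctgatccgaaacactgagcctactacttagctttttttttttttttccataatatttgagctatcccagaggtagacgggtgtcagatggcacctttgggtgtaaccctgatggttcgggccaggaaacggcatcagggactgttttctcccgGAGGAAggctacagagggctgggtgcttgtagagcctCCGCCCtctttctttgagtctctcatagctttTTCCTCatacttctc

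The Itgam window held the PU.1-type letters at 84 and 15 bases before the start and 1 GC box at 47 bases. That of Itgb5 held 3 GC boxes, at 199, 63 and 34 bases before the start, and neither of the other motifs. Itgav had the PU.1-type letters at 218 and 7 bases, Itgb1 at 9 bases with a GC box at 151, and Itgax had no match. All are described in the assembly GRCm38, where Itgb5 spans chr16:33829665-33949338 and Itgam spans chr7:128062640-128118491. Itgax follows Itgam on the same strand after 11055 bases, at chr7:128129547-128150657, and Itgal lies on the same chromosome at chr7:127296260-127335138.

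Itgal, the alpha subunit of LFA-1, was low in microglia-like cells, where Itgb5 was highest. Nonclassical monocyte-like cells held 1594, 1848 and 1584 CPM (1676 ± 150, SD, n = 3). Neutrophil-like cells held 505, 140.2 and 139.7 CPM and T cell-like cells 398, 230.3 and 238 CPM, and their ranges overlapped. B cell-like cells held 126, 37.3 and 35.3 CPM. Microglia-like cells held 41.6, 1.47 and 5.52 CPM, from 97, 6 and 25 UMIs, so the vehicle control library was the only one above background. After thinning, 100%, 91.5% and 94.7% of nonclassical monocyte-like cells had an Itgal UMI, against 6.05%, 0.304% and 0.926% of microglia-like and 3.23%, 0.917% and 0.909% of choroid plexus-like cells. The intervals were 3.56% to 9.51%, 0.0368% to 1.09% and 0.341% to 2.00% in microglia-like cells and 0.0816% to 16.7%, 0.0232% to 5.01% and 0.0230% to 4.96% in choroid plexus-like cells, so the shares of these classes overlapped. The vehicle share among the nonclassical cells rests on 12 cells. Unthinned, the shares were 81.0%, 100% and 100% and, in microglia-like cells, 10.6%, 0.737% and 1.72%.

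Itgax, which encodes CD11c, was also highest in nonclassical monocyte-like cells, at 284, 281 and 152 CPM. Neutrophil-like cells of the vehicle control held 156 CPM, and those of the niacin libraries 4.92 and 2.29 CPM. Microglia-like cells split the same way, at 66.1, 8.55 and 8.83 CPM. Neighbouring classes in its order overlapped throughout.

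Itgb2, the shared beta subunit of these receptors, was detected in every library of the 5 tested classes. Nonclassical monocyte-like cells led with 931, 1089 and 879 CPM, and neutrophil-like cells followed with 403, 536 and 497 CPM. Microglia-like cells held 295, 260.4 and 254 CPM, T cell-like cells 218, 196 and 237 CPM, and B cell-like cells 103, 22.4 and 53.0 CPM, of which the 22.4 CPM, from 3 UMIs, is within background. The ranges of the first 4 of these classes did not overlap from one to the next.

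Itga4 had its highest level in nonclassical monocyte-like cells, at 1818, 1286 and 1117 CPM, ahead of T cell-like cells at 537, 475 and 405 CPM. B cell-like cells held 344, 142 and 199 CPM and neutrophil-like cells 274, 68.9 and 48.1 CPM, and these 2 ranges overlapped. Microglia-like cells held 18.9, 8.55 and 7.73 CPM, below every library of the other leukocyte classes. The gene spans chr2:79255426-79333123, and Cerkl overlaps it on the other strand with 112 UMIs in all barcodes.

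Itgb7, a beta partner of Itga4, was highest in T cell-like cells, at 326, 309.8 and 299.9 CPM (312 ± 13.2, SD, n = 3). Nonclassical monocyte-like cells held 121, 145 and 93.0 CPM and B cell-like cells 45.8, 104.5 and 44.2 CPM, and these ranges overlapped. Neutrophil-like cells had 21.5, 4.92 and 2.29 CPM and microglia-like cells 5.58, 2.69 and 1.55 CPM, and these ranges overlapped. Thinned T cell-like cells had an Itgb7 UMI in 43.4%, 53.8% and 39.7% of cells, against 0.712%, 0.304% and 0.309% of microglia-like cells. Unthinned shares of T cell-like cells were 71.2%, 60.9% and 80.6%.

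The windows before Itga4 and Itgb7 are shown because these partners were both low in microglia-like cells and high in T cell-like cells. They lie at chr2:79255176-79255425, plus strand, and chr15:102231936-102232185, minus strand, and are written as above.
Itga4: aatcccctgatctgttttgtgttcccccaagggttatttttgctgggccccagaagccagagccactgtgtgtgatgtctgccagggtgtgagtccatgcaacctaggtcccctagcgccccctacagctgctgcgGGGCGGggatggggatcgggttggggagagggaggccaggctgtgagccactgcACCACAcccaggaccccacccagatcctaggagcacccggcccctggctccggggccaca
Itgb7: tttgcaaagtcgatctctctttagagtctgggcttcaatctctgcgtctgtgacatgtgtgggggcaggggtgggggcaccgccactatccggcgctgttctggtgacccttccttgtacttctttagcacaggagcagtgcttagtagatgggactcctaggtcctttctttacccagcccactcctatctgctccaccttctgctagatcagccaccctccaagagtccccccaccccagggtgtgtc

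The Itga4 window held the RUNX-type letters at 60 bases and 1 GC box at 114 bases before the start, whereas none of the 3 motifs was found in that of Itgb7.

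Among the tested classes, Itgae was highest in T cell-like cells, at 45.1, 55.1 and 62.7 CPM from 42, 34 and 56 UMIs. No UMI was seen in nonclassical monocyte-like or neutrophil-like cells, and 1 in B cell-like cells. The lowest T cell-like library lay above the highest library of the other tested classes, the largest being 11.5 CPM in B cell-like cells of the vehicle control. Cells left without a class reached 53.0 CPM in the vehicle control, above its T cell-like value, from 44 UMIs in 3.47% of 259 cells. In the niacin libraries they held 6.03 and 9.05 CPM. After thinning, 3.88%, 7.50% and 9.48% of T cell-like cells had a UMI, and 10.6%, 15.5% and 17.2% without thinning. None of the thinned choroid plexus-like cells had one. Haspin overlaps the gene on the other strand with 171 UMIs in all barcodes against 315 of Itgae.

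Itgb1, the beta subunit shared by the very late antigens, was highest in nonclassical monocyte-like cells (689, 712 and 597 CPM) and next in T cell-like cells (413, 438 and 501 CPM). Microglia-like cells held 253, 257 and 240.0 CPM, a spread of 8.94 CPM (SD, n = 3). Neutrophil-like cells ranged from 139.7 CPM in the vehicle control to 27.1 and 18.3 CPM, and B cell-like cells held 34.4, 37.3 and 26.5 CPM. The first 3 classes did not overlap, while choroid plexus-like cells (81.4, 84.9 and 61.7 CPM) overlapped with neutrophil-like cells.

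Itgav, the alpha partner of Itgb5 and Itgb1, was at 138, 138 and 143 CPM in microglia-like cells and at 189.6, 152 and 168 CPM in nonclassical monocyte-like cells. T cell-like cells held 104, 32.4 and 33.6 CPM, B cell-like cells 34.4, 14.9 and 8.84 CPM and neutrophil-like cells 21.5, 12.3 and 9.16 CPM. The 2 leading classes did not overlap with each other or with the lymphocytes.

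To set resident against recruited cells, the UMIs were summed per class and library and 5 classes were fitted together, with the library as a block, by the quasi-likelihood test of edgeR, with p-values adjusted across 7516 genes (Benjamini-Hochberg). The fold changes below are log2 values with an SE. For edgeR the SE was derived from the test, as the size of the log2 value over the square root of its F statistic. Against the equally weighted mean of the 4 recruited classes, 3 of the 10 integrins were higher in microglia-like cells, where 34.7% of all genes tested were, and 3 were lower, where 20.4% were. The remaining 4 did not pass. The median over the 10 was 0.13 and over all genes 0.19. Each fold called between classes or between CD8 and CD4 cells had its direction in 3 of 3 libraries.

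Itgb5 was higher in microglia-like cells by a log2 value of 6.22 (SE 0.20, adjusted p = 1.01e-16), Itgam by 3.04 (SE 0.22, adjusted p = 6.88e-11) and Itgav by 1.64 (SE 0.22, adjusted p = 1.52e-06). Itga4 was lower at -5.23 (SE 0.28, adjusted p = 3.33e-13), Itgal at -4.86 (SE 0.49, adjusted p = 1.78e-08) and Itgb7 at -4.68 (SE 0.43, adjusted p = 2.81e-09). In both niacin libraries the microglial levels behind these 3 lower values were within the background range, whose limits for Itgal and Itga4 rest on few cells. Itgb1 (0.51, adjusted p = 0.0602), Itgb2 (-0.28, adjusted p = 0.319) and Itgax (-0.26, adjusted p = 0.763) did not pass. Itgae gets no fold here, since 2 of the recruited classes had no UMI. Without the vehicle control library, Itgal stood at -6.25. The Itgb5 value includes B cell-like cells with 1 UMI, in niacin replicate 2. Without that library B cell-like cells had none, and Itgb5 stood at 7.24. When the UMIs of the recruited classes were pooled, so that large classes weigh more, Itgb1 turned to -0.82 and passed as lower (edgeR adjusted p = 0.00244), as did Itgax (-1.70, adjusted p = 0.0341) and Itgb2 (-0.81, adjusted p = 0.0177). Itgb1 passed as higher without the vehicle control (0.64, edgeR adjusted p = 0.000142) and under 3 other alternatives, so its direction depends on how the recruited classes are weighed. Itgb2 passed as lower without the vehicle control (-0.42, edgeR adjusted p = 0.0187). With all libraries its mean log2 difference on CPM was 0.024, opposite in sign to the fitted -0.28, so its sign depends on the scaling.

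**Figure D2:**
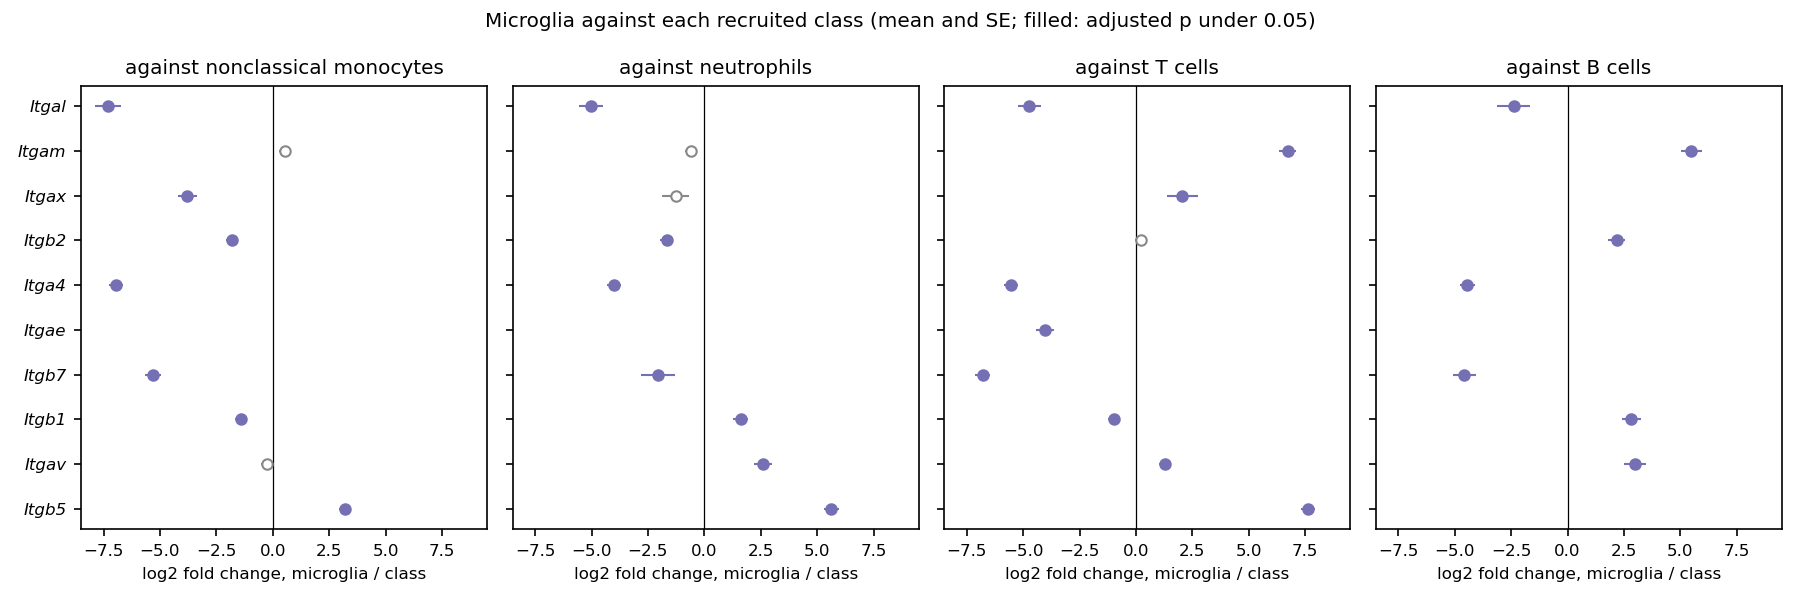
Log2 fold change of each integrin between microglia-like cells and each of the 4 recruited classes, with SE (edgeR, 3 libraries). Filled points have an adjusted p under 0.05, and a place is left empty where the other class had at most 2 UMIs in all. Itgb5 lay to the right and Itgal, Itga4 and Itgb7 to the left in every panel where they are drawn.

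Among the single classes, nonclassical monocyte-like cells differed from microglia-like cells in 7 of the 10 integrins: 1 was higher in microglia-like cells (25.3% of all genes) and 6 were lower (22.3%). The lower ones were Itgal (-7.31, SE 0.57), Itga4 (-6.96, SE 0.32), Itgb7 (-5.29, SE 0.35), Itgax (-3.80, SE 0.42), Itgb2 (-1.82, SE 0.27) and Itgb1 (-1.40, SE 0.27), with edgeR adjusted p-values between 1.17e-13 and 0.000147. Itgb5 was higher by 3.20 (SE 0.25, adjusted p = 3.21e-10). Itgam (0.56, adjusted p = 0.0889) and Itgav (-0.28, adjusted p = 0.379) did not pass, though Itgam passed as higher without any copy of a shared barcode (0.81, edgeR adjusted p = 0.0145) and without the vehicle control (0.38, edgeR adjusted p = 0.0412). Itgal stood at -8.93 and Itgax at -4.66 without the vehicle control, and at -6.50 and -3.09 without niacin replicate 1.

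Against neutrophil-like cells, 3 integrins were higher in microglia-like cells (34.0% of all genes) and 4 were lower (23.4%). Itgb5 was higher by 5.63 (SE 0.33), Itgav by 2.59 (SE 0.40) and Itgb1 by 1.61 (SE 0.33), with edgeR adjusted p-values of at most 0.000278. Itgal was lower at -5.02 (SE 0.53), Itga4 at -4.00 (SE 0.31), Itgb2 at -1.68 (SE 0.28, adjusted p = 2.15e-05) and Itgb7 at -2.06 (SE 0.76, adjusted p = 0.0244). The Itgb7 value rests on 4, 2 and 1 UMIs in neutrophil-like cells, and in the niacin libraries both classes were at background. Its call was lost without the vehicle control or without niacin replicate 1 (-1.80 and -2.14). Without the vehicle control Itgal stood at -6.33 and Itgb1 at 2.38. Itgax did not pass (-1.28, adjusted p = 0.0766) and turned to 0.22 without the vehicle control, but it passed as lower under 4 alternatives, with values between -2.70 and -1.16 and edgeR adjusted p-values between 0.000139 and 0.0267.

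The scaling (TMM) lowered all log2 values of that comparison by 0.79 relative to CPM, against 0.25 for the mean of the recruited classes, 0.11 for T cell-like and 0.12 for B cell-like cells. On CPM the mean log2 difference of Itgb2 was -0.82, of Itgb7 -1.13 and of Itgb1 2.61, and that of Itgax was 0.50, opposite in sign to its fitted value. Itgam also depends on the scaling. Its CPM was higher in microglia-like cells in 3 of 3 libraries, yet the fitted value was -0.60 (SE 0.26, adjusted p = 0.0551), and -0.71 with DESeq2's size factors, which passed. The 8 neutrophil markers alone held 188331, 390065 and 433969 CPM of the neutrophil-like sums, and the median of all genes in that comparison was 0.37. No direction is given for Itgam between these classes.

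T cell-like cells differed from microglia-like cells in 9 of the 10: 4 were higher in microglia-like cells (30.5% of all genes) and 5 were lower (25.9%). Itgb5 (7.62, SE 0.33), Itgam (6.72, SE 0.39), Itgax (2.05, SE 0.68, adjusted p = 0.0134) and Itgav (1.28, SE 0.25, adjusted p = 0.000133) were higher. Itgb7 (-6.80, SE 0.31), Itga4 (-5.54, SE 0.30), Itgal (-4.72, SE 0.51), Itgae (-4.04, SE 0.39) and Itgb1 (-0.97, SE 0.26, adjusted p = 0.00285) were lower, while Itgb2 did not pass (0.21, adjusted p = 0.526). The call of Itgax was lost without the vehicle control (1.17), with DESeq2 (1.92, adjusted p = 0.0622) and when every copy of a shared barcode was left out (0.75, edgeR adjusted p = 0.297), and that of Itgb1 without niacin replicate 2 (-0.89, adjusted p = 0.0530 by edgeR). Without the vehicle control Itgal stood at -6.17 and Itgav at 1.91.

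Against B cell-like cells, the smallest class, 5 integrins were higher in microglia-like cells (21.9% of all genes) and 3 were lower (16.8%). Itgb5 held 9838 UMIs in microglia-like cells against 1 in B cell-like cells, a ratio of CPM of 402 with a counting interval of 72.1 to 15878. Itgam held 7390 against 6 UMIs, a ratio of 50.3 (23.1 to 137), and Itgav (2.98, SE 0.48), Itgb1 (2.81, SE 0.42) and Itgb2 (2.18, SE 0.38) were higher on the log2 scale. Itgb7 (-4.57, SE 0.50), Itga4 (-4.44, SE 0.32) and Itgal (-2.39, SE 0.72, adjusted p = 0.0106 by edgeR) were lower. Of the 6 Itgam UMIs in B cell-like cells 4 were in the vehicle control, and the log2 value of Itgam moved from 5.48 to 6.52 without it. Without the vehicle control Itgal stood at -3.57 and Itgb7 at -5.24, and without niacin replicate 1 Itgb7 stood at -3.93. The call of Itgal was lost without niacin replicate 2 (-2.29, adjusted p = 0.0605 by edgeR).

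T cell-like and B cell-like cells were also set against each other. Here 7 of the 10 integrins were higher in T cell-like cells, where 7.56% of all genes were, and none was lower, where 6.65% were. They were Itgae (adjusted p = 0.00258), Itgb1 (3.78, SE 0.41, adjusted p = 2.98e-07), Itgal (2.33, SE 0.60, adjusted p = 0.00868), Itgb7 (2.23, SE 0.33, adjusted p = 2.75e-05), Itgb2 (1.97, SE 0.38, adjusted p = 0.000682), Itgav (1.70, SE 0.56, adjusted p = 0.0436) and Itga4 (1.10, SE 0.28, adjusted p = 0.00698). Itgam, Itgax and Itgb5, low in both classes, did not pass (adjusted p between 0.370 and 1.00). Without niacin replicate 2, the calls of Itgae, Itgal, Itga4 and Itgav were lost, and 3 remained. The folds of Itgal (2.19, edgeR adjusted p = 0.0995), Itga4 (1.28, edgeR adjusted p = 0.0581) and Itgav (1.57, edgeR adjusted p = 0.204) were then about as large. Itga4 and Itgal were also lost without the block (edgeR adjusted p = 0.0635 and 0.0541). Itgav was also lost without either other library, with DESeq2 (adjusted p = 0.0904), with its size factors in edgeR (adjusted p = 0.0503) and with cells of at least 2000 UMIs (adjusted p = 0.0582), and Itga4 without niacin replicate 1 (0.93, adjusted p = 0.164 by edgeR). Itgae held 132 UMIs in T cell-like cells against 1 in B cell-like cells, a CPM ratio of 24.2 with a counting interval of 4.27 to 963. That UMI lay in the vehicle control, and in the niacin libraries, with 90 against 0 UMIs, Itgae was at least 7.16-fold higher in T cell-like cells, against a floor of 3 UMIs over both B cell-like sums. By the exact counting interval the lower limit of this ratio was 5.70.

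Within T cell-like cells, CD8 cells (a UMI of Cd8a or Cd8b1 and none of Cd4, Cd40lg or Foxp3) numbered 36, 52 and 53, and CD4 cells, defined the other way round, 74, 40 and 60. Itgae stood at 130.2, 103 and 127 CPM in CD8 cells and at 19.3, 4.31 and 5.61 CPM in CD4 cells. Every CD8 value lay above every CD4 value. It was higher in CD8 cells by 3.58 on the log2 scale (SE 0.37, edgeR adjusted p = 5.70e-10). The counts behind it were 31, 31 and 52 UMIs in CD8 cells and 8, 1 and 2 UMIs in CD4 cells. Without the vehicle control the log2 value was 4.50, on the 1 and 2 UMIs of the niacin CD4 cells. Of the 7 integrins tested, 1 was higher in CD8 cells and 1 was lower, against 2.60% and 3.08% of 4578 genes. The lower one, Itgb1, stood at 289.7, 379.7 and 395 CPM in CD8 and at 466, 552 and 659 CPM in CD4 cells (-0.57, SE 0.16, edgeR adjusted p = 0.0149). Its call was lost without niacin replicate 1 (-0.60, edgeR adjusted p = 0.223) or replicate 2 (-0.53, edgeR adjusted p = 0.356), at about the same fold. DESeq2 did not call it (-0.57, adjusted p = 0.415). The call was also lost without the block (-0.57, edgeR adjusted p = 0.708) and without any copy of a shared barcode (-0.41, edgeR adjusted p = 0.235). Itgb7, the partner of Itgae, was at -0.26 (adjusted p = 0.496), Itga4 at -0.39 (adjusted p = 0.176), Itgal at -0.25 (adjusted p = 0.523) and Itgb2 at 0.19 (adjusted p = 0.700).

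**Figure D3:**
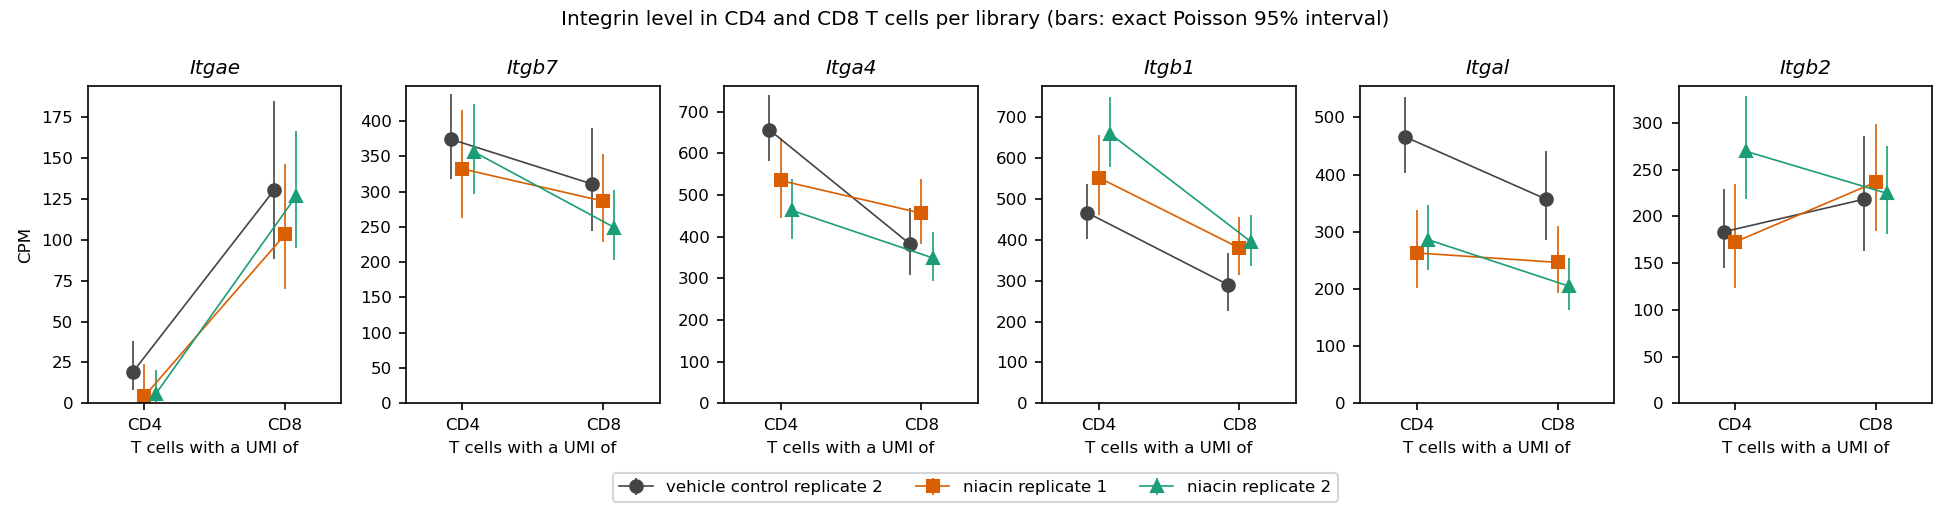
Levels (CPM, y axis from 0) of 6 integrins in CD4 and CD8 T cell-like cells, 1 line per library, with exact Poisson 95% intervals. Itgae rose from between 4.31 and 19.3 CPM in CD4 cells to between 103 and 130.2 CPM in CD8 cells, whereas Itgb7 did not pass the test.

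Microglia-like cells of at least 2000 UMIs, each thinned to 2000, were split by a list of activation genes (such as Cst7, Lpl and Axl) into activated cells, with at least 3 UMIs of the list (49, 62 and 69 cells), and other cells, with none (161, 485 and 469 cells). None of the 5 integrins that passed the low-count filter differed (edgeR adjusted p between 0.652 and 0.958), where 63 of 4127 genes, or 1.53%, did. These were Itgam, Itgb2, Itgb1, Itgav and Itgb5, with no unadjusted p below 0.157, and DESeq2 called none of them either. Itgax, often used as a sign of activated microglia, was too low for that filter. It stood at 133, 32.3 and 36.2 CPM in activated cells, from 13, 4 and 5 UMIs, and at 12.4, 4.12 and 3.20 CPM in other cells, from 4, 4 and 3 UMIs. The activated value was the higher in 3 of 3 libraries. With no low-count filter, edgeR gave a log2 value of 3.13 for Itgax (SE 0.64, adjusted p = 0.000403) and 3.21 for Itgal (SE 0.79, adjusted p = 0.0135). The Itgal counts were 16, 0 and 3 UMIs in activated and 3, 0 and 4 in other cells.

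The treatment could not be tested, since 1 control library leaves its own spread unknown and an exact permutation over 3 libraries cannot give a p below 0.333. In microglia-like cells the vehicle value lay above both niacin values for 7 of the 10 integrins, where it did for 51.4% of the 7516 genes, and below both for 2, where it did for 36.0%. The count above was 4 in nonclassical monocyte-like (40.6% of all genes), 8 in neutrophil-like (66.7%), 6 in T cell-like (50.2%) and 7 in B cell-like cells (49.0%). Of the values given above, Itgal and Itgax in microglia-like cells, Itgal, Itgax, Itga4, Itgb1 and Itgb7 in neutrophil-like cells, Itgav in T cell-like cells and Itgal and Itgam in B cell-like cells are examples of wide gaps of this kind. For Itgb7 in neutrophil-like cells (4, 2 and 1 UMIs) the exact Poisson intervals of vehicle and niacin values overlapped. The same held for Itgal (11, 5 and 8 UMIs) and Itgam (4, 1 and 1 UMIs) in B cell-like cells. Itgb5, Itgav and Itgb1 in microglia-like cells had SDs of 35.1, 2.73 and 8.94 CPM over the libraries.

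In microglia-like cells, markers of other cells differed between the libraries too. The 4 lists of monocytes, macrophages and dendritic cells summed to 511, 202 and 220 CPM in microglia-like cells, with 30, 23 and 26 of their 32 markers detected. The classical monocyte list alone gave 228, 31.5 and 30.2 CPM. The nonclassical monocyte list ran the other way, at 105, 136 and 138 CPM, as did the erythroid list, at 406, 2414 and 3509 CPM. In neutrophil-like cells the 4 lists summed to 4099, 6343 and 6355 CPM. The classical monocyte list made up most of this (3454, 6033 and 6176 CPM), while the macrophage (521, 261 and 119 CPM), nonclassical monocyte (107, 44.3 and 59.6 CPM) and dendritic cell lists (16.1, 4.92 and 0 CPM) were highest in the vehicle control. Where microglia-like cells were split by how many of these markers they held, Itgal stood at 17.0 CPM in vehicle cells with 0 or 1 and at 62.3 CPM in those with 2 or more (275 and 149 cells). In the niacin libraries it went from 1.25 to 2.24 (4 and 2 UMIs) and from 3.42 to 12.7 CPM (12 and 13 UMIs). Itgax went from 34.9 to 92.2, from 6.25 to 16.8 and from 5.99 to 18.6 CPM. In niacin replicate 1 the 16.8 CPM were 15 UMIs in 2 of 132 cells, against 20 UMIs in 19 of 682 cells with fewer markers, so the share of cells with a UMI ran the other way. The cells with 2 or more markers were also deeper, with medians of 8181, 6735 and 7450 UMIs against 2440, 4320 and 3972.5. Itgam, in contrast, stood between 615 and 853 CPM in the cells with fewer markers and between 552 and 816 CPM in the others. Without the cells with 2 or more such markers, Itgal stood at -6.01 against recruited leukocytes, and the call of Itgax against T cell-like cells was lost (1.21). The part of depth and of these markers in the gap between libraries was not tested.

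**Figure D4:**
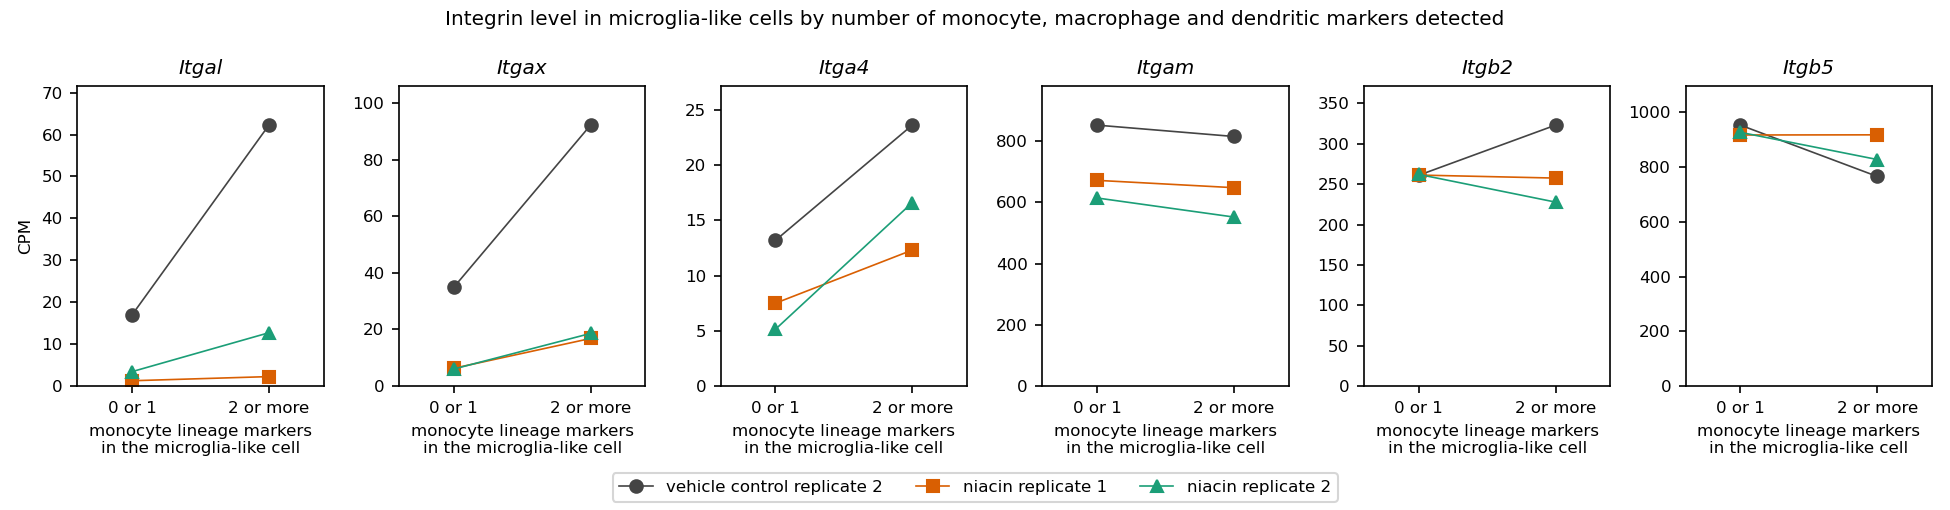
Levels (CPM, y axis from 0) of 6 integrins in microglia-like cells with 0 or 1 and with 2 or more detected markers of monocytes, macrophages or dendritic cells, 1 line per library. Itgal, Itgax and Itga4 stood higher in the cells with more markers in all 3 libraries, on few UMIs in niacin replicate 1 (2 of Itgal, and 15 of Itgax in 2 cells), and Itgam stood lower in all 3.

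Classical monocyte-like cells, of which the vehicle control held 199 of 222, are given as values of that library alone. They held Itgam at 479, Itgb2 at 438, Itga4 at 381, Itgal at 326, Itgb1 at 257, Itgb5 at 143, Itgax at 114, Itgb7 at 105 and Itgav at 81.6 CPM. In the same library, nonclassical monocyte-like cells held Itgal at 1594 and Itga4 at 1818 CPM. Natural killer cell-like cells of the vehicle control (63 cells) held Itga4 at 959, Itgal at 905, Itgb1 at 651 and Itgax at 142 CPM. In the niacin libraries (5 and 10 cells) they held Itga4 at 899 and 499.6 and Itgal at 360 and 236 CPM. Their Itgb1 (989 and 777 CPM) and Itgax (540 and 180 CPM) there lay above the nonclassical monocyte-like values (712 and 597, and 281 and 152 CPM). The exact Poisson intervals overlapped. Basophil or mast cell-like cells held Itgb7 at 0, 319 and 214 CPM (5, 27 and 34 cells).

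The 10 genes fell along 15 sums of 5 classes and 3 libraries in a few shared patterns. These correlations of log2(CPM + 10) are descriptions, since sums of 1 library share its pool and depth. The gene nearest to Itgb5 was the microglial fractalkine receptor Cx3cr1 (Pearson r of 0.99), and the nearest to Itgam were Tyrobp (0.98), a signalling adaptor of myeloid receptors, and Cd9 (0.97). Itgal lay nearest to Mbp (0.96) and Trps1 (0.95), Itgax to Ifi207 (0.98) and Adap1 (0.97), and Itgb2 to Zyx and Myo1f (0.93 for both). Itga4 lay nearest to Arhgap26 and Dusp5 (0.95 for both), Itgae to Samd3 and to Nkg7, a gene of cytotoxic granules (0.98 for both), and Itgb7 to Traf1 (0.97) and Bcl2 (0.94). Itgb1 lay nearest to Ifngr1 (0.94) and Prkch (0.92), and Itgav to Slc29a1 and Zfp770 (0.94 for both). Among the pairs that form a receptor, r was 0.82 for Itga4 and Itgb7, 0.81 for Itgav and Itgb1, 0.75 for Itgav and Itgb5 and 0.71 for Itgam and Itgb2. It was 0.69 for Itgax and Itgb2, 0.62 for Itgal and Itgb2, 0.61 for Itgae and Itgb7 and 0.42 for Itga4 and Itgb1. The pair with the highest r of all, Itgal and Itga4 (0.89), forms no receptor.

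The other genes of the pathway were taken from lists by role and compared in the same fit. Of 18 other integrin subunits, 5 were tested, 2 were higher in microglia-like cells and none was lower (34.7% of all genes were higher and 20.4% lower). Itga6, a laminin receptor subunit, stood at 486, 337 and 324 CPM in microglia-like cells and at no more than 82.6 CPM in any recruited class (log2 value 4.86, SE 0.24). Itga9 held 625 UMIs in microglia-like cells and none in the recruited classes, which makes it at least 91.5-fold higher, against a floor of 3 UMIs over those classes. By the exact counting interval the lower limit of the ratio was 74.2.

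Of 23 genes of integrin activation, 20 were tested, 5 were higher in microglia-like cells and 9 were lower, against the same 34.7% and 20.4% of all genes. Rasgrp2 (CalDAG-GEFI), which switches Rap1 on, stood at 3.43, 0.733 and 1.55 CPM in microglia-like cells and at 345, 364 and 411 CPM in nonclassical monocyte-like cells (log2 value -6.53, SE 0.34, against the mean of the recruited classes). Its relative Rasgrp1 was lower too, at -4.56 (SE 1.18), as was Stk4, the kinase Mst1, at -1.52 (SE 0.18). The adaptors Fyb (1.04, SE 0.24), Apbb1ip (RIAM, 0.89, SE 0.16) and Skap2 (0.82, SE 0.16) were higher. All 6 had edgeR adjusted p-values of at most 0.00222.

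Of 20 ligands, 8 were tested, 4 were higher in microglia-like cells and 1 was lower, beside 34.7% and 20.4% of all genes. F11r (JAM-A), a junction protein bound by LFA-1, was higher by 6.56 on the log2 scale (SE 0.24) at 610, 660.1 and 628 CPM. Jam2 held 765 UMIs in microglia-like and 2 in recruited cells, a CPM ratio of 168 (46.3 to 1389). Icam1 was higher by 1.43 (SE 0.29), whereas Icam2 was lower at -3.10 (SE 0.47). Of 8 selectins and partners, 6 were tested. Selplg, the P-selectin ligand, was higher by 2.70 (SE 0.16) and Sirpa by 3.35 (SE 0.17), and Cd44 (-4.47, SE 0.39) and Cd47 (-1.27, SE 0.19) were lower, with edgeR adjusted p-values of at most 0.000225 for the named genes.

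**Figure D5:**
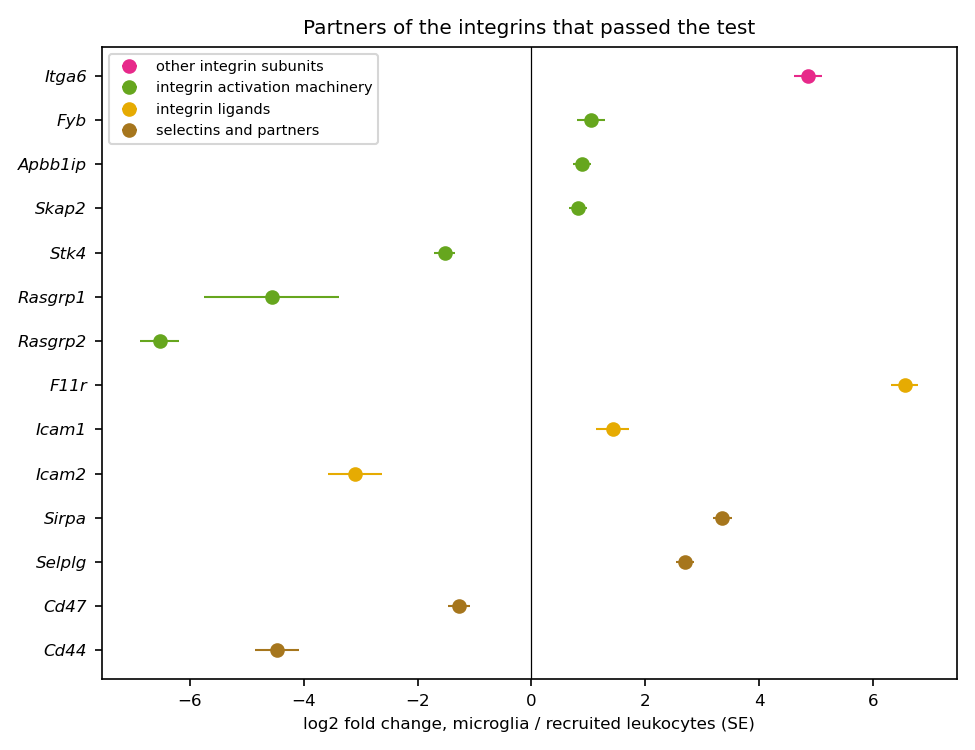
Log2 fold change between microglia-like cells and the mean of the 4 recruited classes, with SE (edgeR, 3 libraries), for genes named from the lists of other subunits, activation, ligands and selectins, by list. Itga9 and Jam2 are left out, having no or 2 UMIs in the recruited classes. Rasgrp2 stood lowest and F11r highest.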

How the data were processed

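Single-cell 3′ libraries (10x, v3.1 chemistry) were made by the authors and counted with Cell Ranger 3.1 (STAR) on mm10, per the labels and the study's methods. The deposited files hold raw UMI counts per gene and barcode for 3 libraries, 1 vehicle control and 2 niacin. They were not normalized, and the filter on genes and mitochondrial UMIs follows the study's methods and left 5528 of 6947 barcodes. The class rule was set after the data were seen, and the 10 genes and all lists were chosen with earlier results of these data known. From the counts, cells were filtered, classed and summed per class and library. The sums were tested with edgeR 4.0.16 (R 4.3.3; TMM scaling, filterByExpr, quasi-likelihood test, library as a block, adjusted p under 0.05), with DESeq2 1.42.0 as an alternative. The library is a block because the classes of a library come from the same pool and run. The 3 libraries are pools of mice under 2 treatments. With the block, p-values measure how much the differences between classes vary over the libraries, and not the spread between the pools themselves. Any treatment effect that differs between classes is part of that variation. Intervals (95%, exact Poisson or binomial) and the floor of 3 UMIs cover counting error only. Doublets were not removed: Scrublet called 18 cells (0.414%), which is too few to be a working call, so an alternative left out the 5% of cells of highest score. The test was tested on simulated data: of genes changed 2-fold and 4-fold between microglia-like and recruited cells, 82% and 99% were recovered, and 8.12% of its calls were false. Between activated and other microglia-like cells 52% and 92% were recovered, and between CD8 and CD4 cells 52% and 94%. Each simulation changed 200 genes, as many up as down, on 1 profile shared by all sums and without library effects. In the data 4142 of 7516 genes were called between microglia-like and recruited cells, so these rates need not hold there. Named genes were the 10 members, up to 3 in each direction per list by fold among genes that passed, and the 2 most correlated genes per member, and a few of these are not reported here. A test of nonclassical against classical monocyte-like cells was not made, for want of cells in niacin replicate 1. Sequences are from the RefSeq table, and coordinates from the GENCODE annotation of GRCm38.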

Additional observations from a re-analysis of the deposited data

Results flagged for a closer look

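For 2 integrins, the difference between microglia-like cells and another class had one sign in the vehicle control library and the other in both niacin libraries, on few or no UMIs. These differences between libraries were not tested. Itgax, set against neutrophil-like cells as log2 of the ratio of (CPM + 10), was at -1.12 in the vehicle control and at 0.31 and 0.62 in the niacin libraries. The neutrophil-like counts behind it were 29, 2 and 1 UMIs. Itgae, set against B cell-like cells on the same scale, was at -0.54 in the vehicle control and at 0.40 and 0.36 in the niacin libraries. The B cell-like side held 1 UMI in the vehicle control and none in the niacin libraries, so the sign there was set by the zeros. The exact Poisson upper limits of those zeros were 27.5 and 16.3 CPM, above the 3.18 and 2.87 CPM of microglia-like cells, and no direction is shown.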

How the results depend on the processing

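Of 46 integrin differences that passed, 37 kept their direction and their side of the threshold under every alternative run, none reversed, and 703 of 730 alternative values kept the call. Without a replicate block the number of genes called in microglia-like against recruited cells was 3704 against 4142. All but 5 integrin calls passed without the block. Those lost were Itgax against T cell-like cells (2.08, adjusted p = 0.0891 by edgeR) and Itgal against B cell-like cells (-2.08, adjusted p = 0.0620 by edgeR). Itga4 and Itgal between T cell-like and B cell-like cells were lost too (1.09 and 2.29, edgeR adjusted p = 0.0635 and 0.0541). The last was Itgb1 between CD8 and CD4 cells (-0.57, edgeR adjusted p = 0.708). Without the block the genes called fell from 63 to 12 between activated and other microglia-like cells and from 260 to 54 between CD8 and CD4 cells, with 1 integrin in place of 2 in the latter. DESeq2 gave 17 and 69 genes for these contrasts, with 1 integrin called between CD8 and CD4 cells. Dropping every copy of a shared barcode gave 2859 of 5095 genes tested against neutrophil-like cells (4307 of 7516 before), 28 of 3696 between activated and other cells (63 of 4127) and 1 integrin between CD8 and CD4 cells. For activated cells the top 5% of Scrublet scores left out gave 105 of 3770 genes and thinning to 1000 UMIs gave 20 of 2689. Asking for 5 UMIs of the list gave 1 integrin (Itgax, which the low-count filter removes in the split reported, so that its call there depends on passing the filter), and no low-count filter gave 2. Pooling the recruited UMIs called 10 integrins, Itgae included, in place of 6, and 5920 of 10447 genes in place of 4142 of 7516. Leaving out 1 library at a time gave between 1886 and 3105 genes against B cell-like cells (2907), 2273 and 4128 against nonclassical monocyte-like cells (3578), 574 and 1237 for T cell-like against B cell-like cells (1068), 28 and 75 for activated cells and 65 and 197 for CD8 against CD4 cells. The integrins called then numbered between 3 and 6 for T cell-like against B cell-like cells (7) and between 1 and 2 for CD8 against CD4 cells. Signs turned for Itgax against recruited leukocytes (0.89 with the Scrublet alternative, 0.0025 without the block, and between -0.26 and 0.75 when 1 library at a time was left out, the last without the vehicle control), for Itgax against neutrophil-like cells (between -1.50 and 0.22, the last without the vehicle control) and for Itgb1 with pooled UMIs (-0.82), which then passed as lower. None of these had passed before. Itgb1 passed as higher with 1 more marker required (0.56), at most 10% mitochondrial UMIs (0.54), no low-count filter (0.61) and without the vehicle control (0.64). Itgax against neutrophil-like cells passed as lower without any copy of a shared barcode (-2.70), without microglia-like cells with monocyte markers (-2.09), with no low-count filter (-1.16) and with the Scrublet alternative (-1.52). Itgam against neutrophil-like cells passed as lower under several alternatives (-0.92 without the vehicle control), which its CPM does not show. The causes were not tested. Leaving out the microglia-like cells with monocyte markers and keeping shared barcodes only at a 5-fold depth ratio were chosen after seeing the data. Without a low-count filter the median of all genes moved from 0.19 to 0.72 in the main contrast. Fewer than 50 cells per library in several classes limit what low genes such as Itgae and Itgax can show.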
